A study of Homo sapiens with 12 samples.

Results

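ZDHHC4 and 9 of its neighbours on chromosome band 7p22 were followed across 786O and WT8 renal carcinoma cells. The 10 genes were, in chromosomal order, PMS2, AIMP2, EIF2AK1, CYTH3, RAC1, DAGLB, KDELR2, ZDHHC4, C7orf26 and ZNF12, chosen by name among 38021 gene names. The reasons were that ZDHHC4 had been absent from WT8 control cells and that genes of chromosome 7 had been lower as a group. The difference between WT8 and 786O in the shControl libraries was therefore used to choose the genes, and it is given below as a description without a test. The shBMAL1 libraries took no part in that choice.

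786O is an established line of clear cell renal cell carcinoma that lacks functional VHL, the substrate receptor of the ubiquitin ligase that marks the hypoxia-inducible factors HIF1α and HIF2α for destruction. WT8 cells descend from 786O and carry wildtype VHL. Each line was infected with lentivirus encoding a scrambled control shRNA (shControl) or an shRNA against BMAL1 (shBMAL1), a subunit of the circadian clock activator, and kept in puromycin, so all 12 libraries come from infected and selected cells. The 4 groups, 786O shControl, 786O shBMAL1, WT8 shControl and WT8 shBMAL1, had 3 libraries each, which the labels call biological replicates, and p-values measure the spread between these libraries. VHL status and any other difference between the 2 lines cannot be told apart, and DNA copy number was not analysed here.

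The 10 genes have little in common but their address. ZDHHC4 encodes a protein of the DHHC family, which attaches palmitate to cysteines of target proteins and so tethers them to membranes. KDELR2 returns escaped chaperones from the Golgi to the endoplasmic reticulum, DAGLB makes the endocannabinoid 2-arachidonoylglycerol from diacylglycerol, RAC1 is a GTPase that drives actin assembly at the cell edge, and CYTH3 is a cytohesin, an exchange factor for ARF GTPases. C7orf26, now named INTS15, is a subunit of the Integrator complex that cleaves small nuclear RNAs. AIMP2 is a scaffold of the multi-tRNA synthetase complex, EIF2AK1 is the heme-regulated kinase of the translation factor eIF2α, PMS2 acts in DNA mismatch repair, and ZNF12 is a zinc finger protein.

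On GRCh37 the genes span chromosome 7 from base 6010556 to base 6746578, which is 736 kb. ZDHHC4 lies on the plus strand from 6617065 to 6629005, and C7orf26 follows it on the same strand, 646 bases further on. KDELR2 and DAGLB, which start at the same annotated base on the minus strand, are the nearest genes of the set on the other side, 93.2 kb away. PMS2 and AIMP2 point away from each other across 124 bases. AIMP2 and EIF2AK1 share 1588 bases on opposite strands. DAGLB and KDELR2 share 38238 bases on the minus strand in the annotation, and ZDHHC4 overlaps an antisense RNA. Whether strand was used in counting is not given in the sources used here, so reads in shared bases may have been split between genes, and PMS2 also has near-identical pseudogene copies.

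Promoter sequence was looked up because BMAL1 and the hypoxia-inducible factors bind short motifs, the E-box CACGTG and the hypoxia element cores ACGTG and GCGTG. RefSeq windows of 300 bases on GRCh38.p14 were at hand for 6 of the 10 genes, and none for ZDHHC4. In 35116 such windows over all genes, 7.26% held CACGTG and 48.4% held ACGTG or GCGTG on either strand. Each CACGTG also contains ACGTG, so these counts overlap. The CYTH3, DAGLB and C7orf26 sequences below lie before a RefSeq start of the gene, read 5′ to 3′ on its own strand. The RefSeq start of DAGLB differs from the GRCh37 annotation, where DAGLB begins at the same base as KDELR2. The printed DAGLB sequence therefore lies within the longer annotated gene. The stretch between a RefSeq start of PMS2 and one of AIMP2 is read on the plus strand. It has 165 bases on GRCh38.p14, against 124 between the annotated genes on GRCh37. Capitals mark the motifs on either strand. The sequences were picked because the PMS2 and AIMP2 starts face away from each other and a CYTH3 window held an E-box. DAGLB and C7orf26 are shown because they differed most, between the lines and with shBMAL1 in WT8, among the 9 genes other than ZDHHC4. PMS2, AIMP2 and CYTH3 had 2 windows each. The window of the AIMP2 start further downstream, not printed, held 1 CACGTG and 5 matches to the hypoxia cores, and the other CYTH3 window held no CACGTG and 2 such matches. A PMS2 window held 1 match to the hypoxia cores, not within the printed stretch. The ZNF12 window, not printed, also held 1 such match, and neither window held CACGTG. A match is a description of the letters and not a site of binding.

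between PMS2 and AIMP2 (chr7:6009107-6009271, plus strand): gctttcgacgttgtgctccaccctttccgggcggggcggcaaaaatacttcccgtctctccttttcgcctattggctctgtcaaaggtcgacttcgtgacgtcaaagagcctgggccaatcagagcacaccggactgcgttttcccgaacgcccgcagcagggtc
CYTH3 (chr7:6272625-6272874, minus strand): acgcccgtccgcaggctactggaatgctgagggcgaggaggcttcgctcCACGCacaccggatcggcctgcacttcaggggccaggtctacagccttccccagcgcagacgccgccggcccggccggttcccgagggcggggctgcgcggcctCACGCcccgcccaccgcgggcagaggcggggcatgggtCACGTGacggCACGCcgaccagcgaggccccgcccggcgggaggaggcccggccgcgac
DAGLB (chr7:6447955-6448204, minus strand): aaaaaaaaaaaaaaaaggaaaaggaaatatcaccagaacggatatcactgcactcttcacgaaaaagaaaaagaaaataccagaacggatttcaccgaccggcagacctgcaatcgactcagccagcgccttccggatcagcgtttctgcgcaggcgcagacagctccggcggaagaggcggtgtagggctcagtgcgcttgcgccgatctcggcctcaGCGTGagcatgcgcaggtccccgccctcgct
C7orf26 (chr7:6589771-6590020, plus strand): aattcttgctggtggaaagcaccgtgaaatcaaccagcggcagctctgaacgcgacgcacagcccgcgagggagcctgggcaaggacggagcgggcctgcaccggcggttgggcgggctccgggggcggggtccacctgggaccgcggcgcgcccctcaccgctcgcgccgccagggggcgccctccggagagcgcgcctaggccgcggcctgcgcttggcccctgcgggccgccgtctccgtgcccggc

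Total counts ran from 33182005 to 36477484 per library, and within groups the libraries correlated across genes at 0.991 to 0.992 (Pearson) on log2 CPM, that is, counts per library after scaling all libraries to equal size. The label checks held. BMAL1, listed as ARNTL, fell from 12.1 ± 1.37 CPM (SD, n = 3) to 3.94 ± 0.22 with shBMAL1 in 786O. In WT8 it fell from 9.24 ± 0.966 to 1.66 ± 0.236. VHL was at 18.8 ± 1.58 CPM in 786O shControl and 981 ± 56.5 in WT8 shControl. With shBMAL1, VHL was at 19.4 ± 1.62 CPM in 786O and at 647 ± 15.1 in WT8. Its fall in WT8 was 0.60 on the log2 scale (SE 0.049, edgeR adjusted p = 6.67e-13). The part of this fall in the comparisons with WT8 shBMAL1 was not tested. All 7 renal carcinoma markers examined, PAX8 among them, were present in the 4 groups, and the blood markers PTPRC and CD3E did not exceed 1 count in any library. The share of counts from 13 mitochondrial genes was 2.85% to 3.52% in 786O libraries and 3.38% to 4.29% in WT8 libraries, and its part in the differences between the lines was not tested.

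ZDHHC4 was present in every 786O library and all but missing from WT8. The 3 786O shControl libraries had 1009, 951 and 1027 counts, which is 29.4, 27.2 and 29.2 CPM. The 3 786O shBMAL1 libraries had 670, 656 and 748 counts, or 19.2, 18.9 and 21.5 CPM. WT8 held 0 counts in all 3 shControl libraries and 0, 0 and 1 count in the shBMAL1 libraries. The lines did not overlap with either shRNA. Against a floor of 3 counts per library, the level was at least 343-fold lower in WT8 shControl than in 786O shControl. With shBMAL1, which was not used to choose the gene, the 2 lines had 2074 counts and 1 count in all. That is a ratio of 2233 after library scaling, with a 95% counting interval of 400 to 88235. The quasi-likelihood test of edgeR gave an adjusted p of 1.63e-27. These libraries come from the same 2 lines as the shControl libraries, and ZDHHC4 passed the filter on low counts through 786O alone. The p-value is therefore no independent support for the absence that chose the gene. Counts of 2 were more frequent in the table than counts of 1 (14904 and 11312 values), so both mates of a read pair may each have added a count, and the floor then stands for fewer fragments. In bulk libraries, fewer cells with the transcript and less transcript per cell cannot be told apart.

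**Figure D1:**
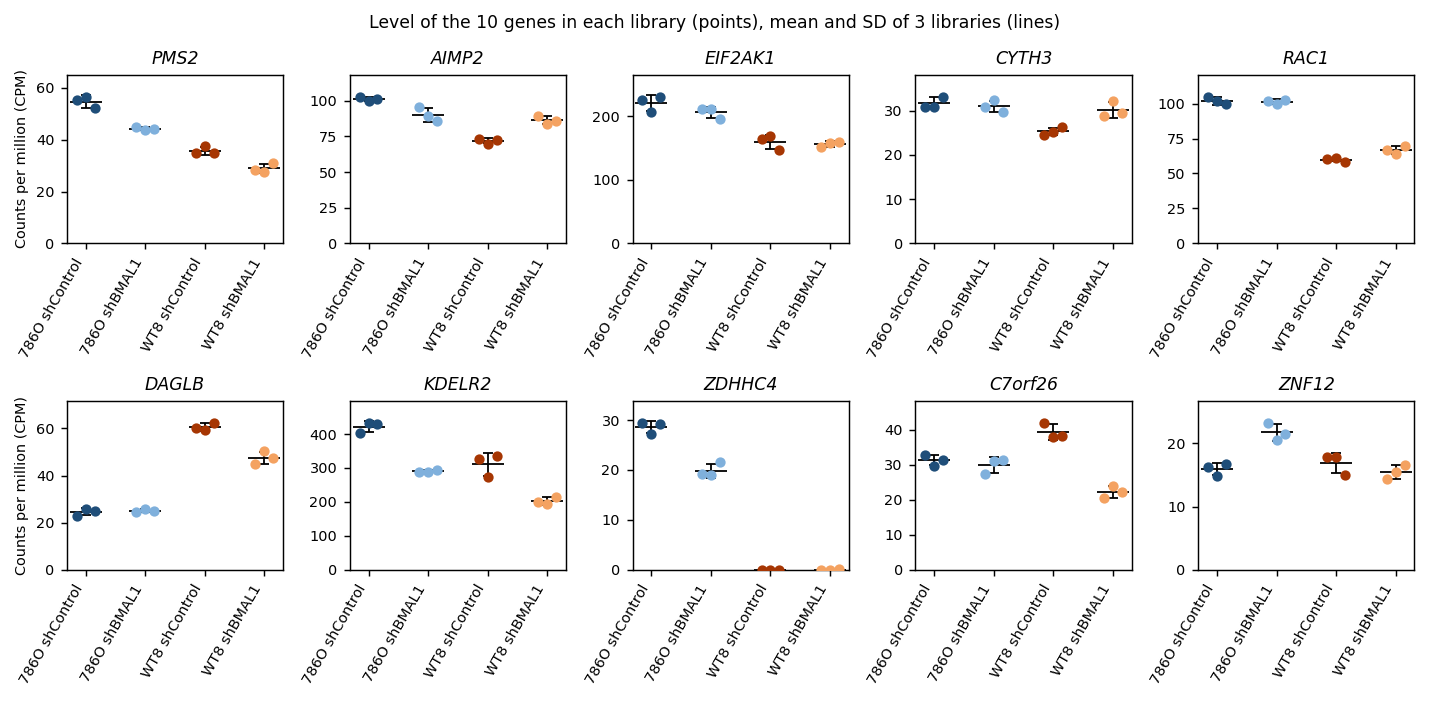
Level of each of the 10 genes in CPM (vertical axes from 0) in every library, ordered by group on the horizontal axes, with the mean and SD of 3 libraries as lines. ZDHHC4 sat between 18.9 and 29.4 CPM in 786O and at the floor in WT8, and DAGLB was higher in all WT8 libraries than in all 786O libraries.

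Within 786O, ZDHHC4 fell with shBMAL1, by 0.53 on the log2 scale (SE 0.0897, 1.44-fold, edgeR adjusted p = 1.13e-05), and the libraries of the 2 groups did not overlap. The 786O shControl libraries in this comparison also took part in choosing the gene, which may favour a fall. In WT8 the same comparison had no level to measure, since 5 of the 6 libraries were at 0.

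Of the 10 genes, all passed the filter on low counts. WT8 shBMAL1 against 786O shBMAL1 is the comparison of the lines in libraries not used to choose ZDHHC4. These libraries come from the same 2 lines, so genes called lower there are no independent support for the choice. ZDHHC4, counted below, passed that filter through 786O alone. Across all 16838 genes tested, 36.0% were called higher and 37.0% lower in WT8 at an edgeR adjusted p under 0.1. Among the 10 genes, 1 was called higher (DAGLB), 7 were called lower (PMS2, EIF2AK1, RAC1, KDELR2, ZDHHC4, C7orf26 and ZNF12) and 2 were not called (AIMP2 and CYTH3). For the 9 genes other than ZDHHC4 the median log2 difference was -0.43, where the median over all genes was 0.00. The same 9 had a median of -0.44 in the shControl libraries, where 6 of them lay below 0.

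**Figure D2:**
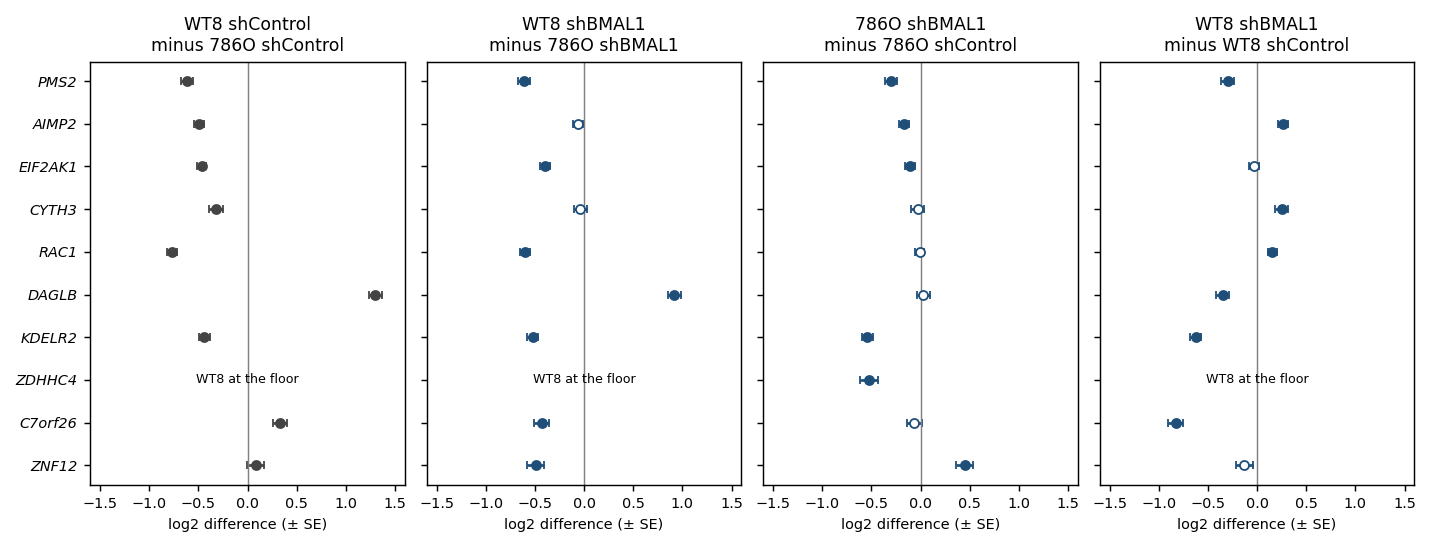
Fitted log2 differences (horizontal axes, ± SE) of the 10 genes in chromosomal order for the comparisons of lines and of shRNAs, with ZDHHC4 left out where WT8 was at the floor. Blue filled points were called at an edgeR adjusted p under 0.1, open points were not, and grey points are the comparison that chose the genes and were not tested. DAGLB at 1.30 and 0.92 was the gene of the set that lay clearly above 0 in both comparisons of lines.

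The effect of BMAL1 depletion was read next. In 786O, where 24.5% of all genes tested were called higher and 24.4% lower with shBMAL1, 1 of the 10 genes rose (ZNF12), 5 fell (PMS2, AIMP2, EIF2AK1, KDELR2 and ZDHHC4) and 4 were not called. In WT8, where 32.9% of all genes were called higher and 36.9% lower, 3 rose (AIMP2, CYTH3 and RAC1), 4 fell (PMS2, DAGLB, KDELR2 and C7orf26) and 3 were not called. The median over the 9 genes other than ZDHHC4 was -0.06 in 786O and -0.13 in WT8, beside 0.00 and -0.04 over all genes. A different response to shBMAL1 in the 2 lines (interaction, log2 change in WT8 minus that in 786O) was called for 6 of the 10 genes, 3 upward and 3 downward, where 56.0% of all genes tested were called. The comparisons of shBMAL1 with shControl and the interaction all include the shControl libraries on which the genes were chosen. A choice on lower levels in WT8 shControl may favour falls in 786O and rises in WT8. These comparisons also share libraries with the comparisons of the lines.

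KDELR2, the retrieval receptor, was the most abundant of the 10 per kb of exon and fell with shBMAL1 in both lines. It had 403, 433 and 429 CPM in 786O shControl and 289, 287 and 293 in 786O shBMAL1. In WT8 the libraries were at 326, 272 and 335 CPM with shControl and at 198, 193 and 214 with shBMAL1. Neither pair of shControl and shBMAL1 groups overlapped. The fall was 0.54 on the log2 scale in 786O (SE 0.0565, edgeR adjusted p = 1.09e-08) and 0.63 in WT8 (SE 0.057, edgeR adjusted p = 2.53e-10). The difference between those falls was -0.08 (SE 0.08, edgeR adjusted p = 0.414), and without the second WT8 shControl library, which was the lowest of its group, it was -0.17 and called (edgeR adjusted p = 0.0316). KDELR2 was lower in WT8 shBMAL1 than in 786O shBMAL1 by 0.52 (SE 0.057, edgeR adjusted p = 6.74e-09).

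DAGLB, the diacylglycerol lipase that shares annotated bases with KDELR2 on the same strand, went the other way between the lines. Its 786O libraries had 22.99, 25.8 and 25.1 CPM with shControl and 24.4, 25.96 and 24.99 with shBMAL1. Its WT8 libraries had 60.02, 59.2 and 62.4 CPM with shControl and 44.8, 50.2 and 47.3 with shBMAL1. Every WT8 library thus lay above every 786O library. The log2 difference was 1.30 in shControl, as a description, and 0.92 in shBMAL1 (SE 0.0647, 1.89-fold, edgeR adjusted p = 5.43e-15). With shBMAL1, DAGLB fell in WT8 by 0.35 (SE 0.0617, edgeR adjusted p = 6.18e-06) and had a value of 0.03 in 786O (edgeR adjusted p = 0.768), and the 2 effects differed by -0.38 (SE 0.091, edgeR adjusted p = 0.000648).

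RAC1 and CYTH3, both in small GTPase signalling, were lower in WT8 shControl and rose there with shBMAL1. RAC1 had 105, 102 and 99.4 CPM in 786O shControl and 60.2, 61.3 and 58.5 in WT8 shControl. In the shBMAL1 libraries RAC1 was at 102, 99.8 and 103 CPM in 786O and at 66.7, 64.1 and 69.6 in WT8. The lines did not overlap, and the difference with shBMAL1 was -0.60 (SE 0.0486, 1.52-fold, edgeR adjusted p = 2.23e-13). In WT8, RAC1 rose by 0.16 with shBMAL1 (SE 0.0494, edgeR adjusted p = 0.00638), which differed from the -0.01 in 786O by 0.17 (edgeR adjusted p = 0.0442). With upper quartile scaling, which put the median of all genes at -0.12 for shBMAL1 in WT8, neither of these calls held, at 0.08 (edgeR adjusted p = 0.154) and 0.10 (edgeR adjusted p = 0.216).

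CYTH3 differed between the lines with shControl but not measurably with shBMAL1. It had 30.9, 30.7 and 33.2 CPM in 786O shControl and 24.6, 25.2 and 26.2 in WT8 shControl. With shBMAL1 it had 30.8, 32.3 and 29.6 CPM in 786O and 28.8, 32.1 and 29.3 in WT8, so these groups overlapped, and the log2 difference of -0.04 (SE 0.0687) was not called (edgeR adjusted p = 0.631). In WT8, CYTH3 rose by 0.25 with shBMAL1 (SE 0.0693, edgeR adjusted p = 0.00206). The change in 786O was -0.03 (edgeR adjusted p = 0.753), and the interaction was 0.28 (SE 0.0976, edgeR adjusted p = 0.0162). Of its 2 promoter windows, the one printed above held CACGTG and 5 matches to the hypoxia cores, counted on both strands and with the E-box included.

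C7orf26 starts 646 bases beyond ZDHHC4 and was expressed in WT8. It had 32.7, 29.8 and 31.5 CPM in 786O shControl, 27.5, 31.1 and 31.3 in 786O shBMAL1, 42.0, 38.1 and 38.3 in WT8 shControl and 20.6, 23.8 and 22.2 in WT8 shBMAL1. WT8 was thus above 786O with shControl and below it with shBMAL1, with no overlap in either case. The fall with shBMAL1 in WT8 was 0.83 on the log2 scale (SE 0.0729, 1.78-fold, edgeR adjusted p = 2.62e-12), the steepest of the 9 genes with a measurable level in WT8. In 786O the value was -0.06 (edgeR adjusted p = 0.52), and the interaction was -0.77 (SE 0.103, edgeR adjusted p = 8.92e-08). Between the lines the log2 difference was 0.33 with shControl, as a description, and -0.43 with shBMAL1 (SE 0.0738, edgeR adjusted p = 3.56e-06).

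AIMP2 and EIF2AK1 meet at their 3′ ends and both act around translation. AIMP2 had 103, 99.6 and 101 CPM in 786O shControl, 95.5, 89.1 and 85.6 in 786O shBMAL1, 73.3, 69.9 and 72.6 in WT8 shControl and 89.2, 83.9 and 86.1 in WT8 shBMAL1. It thus fell with shBMAL1 in 786O and rose in WT8, and the lines came to overlap in the shBMAL1 libraries. The changes were -0.17 (SE 0.0492, edgeR adjusted p = 0.00482) and 0.26 (SE 0.0497, edgeR adjusted p = 1.77e-05), and they differed by 0.44 (SE 0.0699, edgeR adjusted p = 2.39e-06). The log2 difference between the lines was -0.49 with shControl and -0.06 with shBMAL1 (SE 0.0493, edgeR adjusted p = 0.292).

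EIF2AK1 was lower in WT8 with either shRNA and changed little with shBMAL1. Its libraries had 225, 207 and 231 CPM in 786O shControl, 211, 211 and 196 in 786O shBMAL1, 164, 169 and 147 in WT8 shControl and 152, 159 and 159 in WT8 shBMAL1. The lines did not overlap, with a log2 difference of -0.47 for shControl and -0.40 for shBMAL1 (SE 0.0499, edgeR adjusted p = 1.1e-08). The fall of 0.10 with shBMAL1 in 786O passed the threshold narrowly (edgeR adjusted p = 0.0900) and its groups overlapped. That call was lost without the first or the third 786O shControl library (edgeR adjusted p = 0.196 and 0.301), without the third 786O shBMAL1 library (edgeR adjusted p = 0.319) and in DESeq2 (adjusted p = 0.156). In WT8 the value was -0.03 (edgeR adjusted p = 0.607), and with upper quartile scaling it was -0.11 and called (edgeR adjusted p = 0.0559).

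PMS2 was lower in WT8 and fell with shBMAL1 by a like amount in each line. It had 55.5, 56.7 and 52.1 CPM in 786O shControl and 45.0, 43.8 and 44.1 in 786O shBMAL1. In WT8 it had 34.9, 37.6 and 34.8 CPM with shControl and 28.5, 27.6 and 31.0 with shBMAL1. The 4 groups did not overlap. The fall with shBMAL1 was 0.31 in 786O (SE 0.0613, edgeR adjusted p = 0.0001) and 0.30 in WT8 (SE 0.0635, edgeR adjusted p = 9.35e-05), with a difference of 0.00 (SE 0.0885, edgeR adjusted p = 0.982). The log2 difference between the lines was -0.61 with either shRNA, and with shBMAL1 it had an SE of 0.063 and an edgeR adjusted p of 1.2e-10. AIMP2, which starts 124 bases from PMS2, rose in WT8 where PMS2 fell.

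ZNF12, the zinc finger gene at the far end, was the only one of the 10 genes called higher with shBMAL1 in 786O. It had 16.2, 14.9 and 16.7 CPM in 786O shControl, 23.3, 20.6 and 21.5 in 786O shBMAL1, 17.8, 17.8 and 15.03 in WT8 shControl and 14.3, 15.5 and 16.5 in WT8 shBMAL1. The 786O shBMAL1 libraries lay above all others, which overlapped one another. The rise was 0.45 on the log2 scale (SE 0.0866, 1.36-fold, edgeR adjusted p = 5.8e-05) and the interaction was -0.58 (SE 0.123, edgeR adjusted p = 0.000164). In WT8 the value of -0.13 was not called (edgeR adjusted p = 0.197). It was called at -0.21 without the third WT8 shControl library (edgeR adjusted p = 0.054) and at -0.20 with upper quartile scaling (edgeR adjusted p = 0.0384). The lines differed by 0.08 with shControl and by -0.49 with shBMAL1 (SE 0.0863, edgeR adjusted p = 5e-06).

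The order of the 10 levels per kb of exon was read in each group. In 786O shControl it ran from KDELR2 at 107 ± 4.2 CPM per kb (SD, n = 3) through AIMP2 at 55.5 ± 0.932, EIF2AK1 at 40.3 ± 2.25, RAC1 at 12.3 ± 0.344, C7orf26 at 11.5 ± 0.538, ZDHHC4 at 8.04 ± 0.347, CYTH3 at 5.45 ± 0.233, PMS2 at 4.87 ± 0.213 and DAGLB at 4.31 ± 0.254 to ZNF12 at 3.00 ± 0.177. No neighbours in that order overlapped in their libraries. In WT8 shControl, DAGLB moved from place 9 to place 5 with 10.6 ± 0.29 CPM per kb, ahead of RAC1 at 7.25 ± 0.168, and ZDHHC4 moved to place 10. PMS2 and ZNF12 overlapped there. In WT8 shBMAL1, DAGLB, C7orf26 and RAC1 lay at 8.3 ± 0.475, 8.16 ± 0.587 and 8.07 ± 0.329 CPM per kb and overlapped, as did ZNF12 and PMS2.

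The stretch between PMS2 and ZNF12 holds 16 annotated genes of the table, of which 14 were tested, so 4 tested genes lie among the 10. In WT8 shBMAL1 against 786O shBMAL1, 3 of these 4 were called lower and 1 was not. FAM220A differed by -0.64 (SE 0.105, edgeR adjusted p = 1.8e-06), USP42, a ubiquitin-specific protease, by -0.18 (SE 0.0659, edgeR adjusted p = 0.0136) and ZNF316 by -0.15 (SE 0.0701, edgeR adjusted p = 0.0553). ANKRD61, which lies within EIF2AK1 and had at most 31 counts in a library, was not called (-0.73, SE 0.442, edgeR adjusted p = 0.144). USP42 rose with shBMAL1 in 786O by 0.48 (SE 0.0669, edgeR adjusted p = 2.85e-07) and in WT8 by 0.38 (SE 0.0671, edgeR adjusted p = 7.88e-06), unlike any of the 10 genes, none of which rose in both lines.

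The lower level in WT8 reached far beyond these genes along the chromosome. The first 7.3 Mb, which make up band 7p22, hold 66 tested genes, and their median log2 difference was -0.43 with shControl (49 of 66 below 0) and -0.47 with shBMAL1 (55 of 66 below 0). With shBMAL1, 46 of the 66 were called lower and 7 higher, beside 37.0% and 36.0% of all genes tested. With shBMAL1 against shControl, 15 of the 66 fell and 19 rose in 786O, and 28 fell and 24 rose in WT8. The shares of all genes tested were 24.4% and 24.5% in 786O, and 36.9% and 32.9% in WT8. Over all 697 tested genes of chromosome 7 the median difference between the lines was -0.58 with shControl and -0.60 with shBMAL1, the lowest among chromosomes 1 to 22 and X in both. The next lowest was -0.33 for chromosome 4 with shControl and -0.31 for chromosomes 21 and 9 with shBMAL1. Genes lower as a group on chromosome 7 were part of the choice, so these medians and the counts between the lines are a description.

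**Figure D3:**
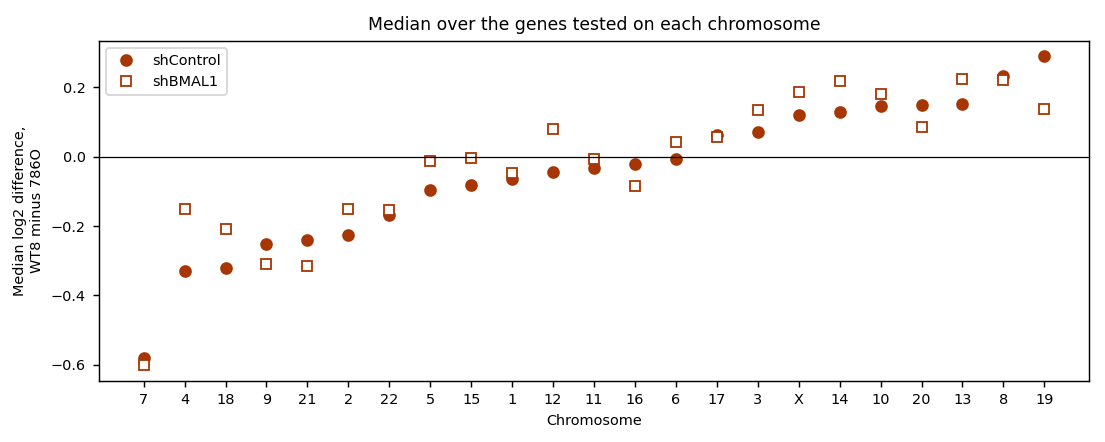
Median log2 difference between WT8 and 786O (vertical axis) over the genes tested on each chromosome (horizontal axis, in order of the shControl value), with filled circles for shControl and open squares for shBMAL1. Chromosome 7 lay at -0.58 and -0.60, and chromosome 19 was the highest with shControl at 0.29.

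Along the chromosome the difference was uneven. The window of 10 Mb that holds the 10 genes had a median of -0.44 with shControl and -0.46 with shBMAL1 over 72 genes. Between 20 and 30 Mb the medians were -0.12 and 0.12 over 49 genes, and between 40 and 50 Mb they were 0.01 and -0.05 over 48 genes. The most negative window, at 80 to 90 Mb, had -1.76 and -1.67 over 20 genes. Chromosome 7 genes held 6.10% to 6.24% of the counts in the 786O libraries and 3.99% to 4.21% in the WT8 libraries. Without ACTB the shares were 5.18% to 5.25% and 3.63% to 3.66%, so the libraries of each line lay close together and the lines did not overlap.

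**Figure D4:**
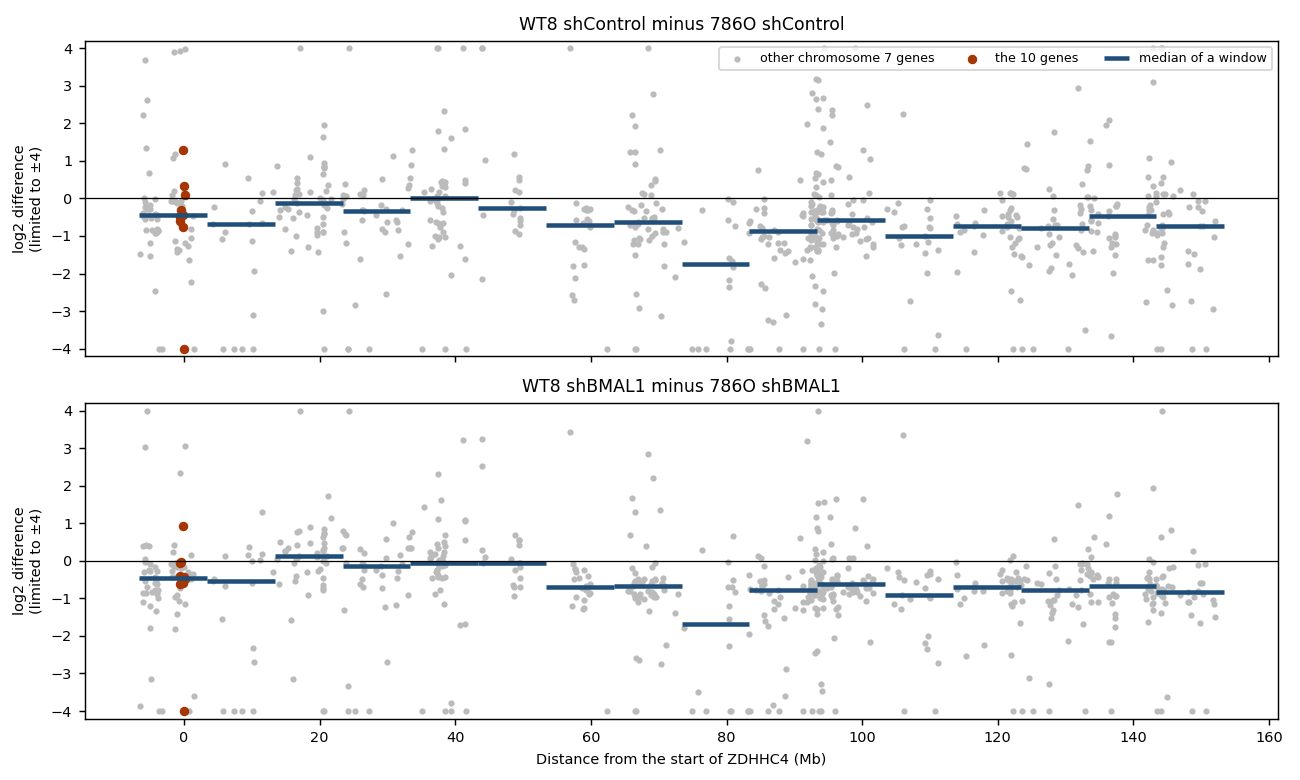
Log2 difference between WT8 and 786O (vertical axes, limited to ±4) of each tested chromosome 7 gene against its distance in Mb from the start of ZDHHC4 (horizontal axis), for shControl above and shBMAL1 below, with the 10 genes in red and window medians over 10 Mb as blue lines. Most windows lay below 0, and the window of the 10 genes was at -0.44 and -0.46.

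ZDHHC4 was not alone in its pattern. On chromosomes 1 to 22 and X, 67 genes had at most 3 counts in every WT8 library and at least 50 in every 786O library, and 6 of them lie on chromosome 7. Chromosome 4 held 9 and chromosome 1 held 7 of the 67. Chromosome 7 holds 697 of the 16838 genes tested. By CPM in 786O, not corrected for gene length, the leading ones of the 67 were CTHRC1 at 64.3 CPM, TP73-AS1 at 51.8, CACNA2D1 at 40.9, CXCL5 at 26.7 and VSTM4 at 25.3, followed by ZDHHC4 at 24.2. LAYN at 21.0, CDH11 at 19.6, MME at 16.7 and NDN at 16.5 came next. On chromosome 7 the others, named after their values were seen, were CACNA2D1, SDK1, ABCA13, VWDE and AUTS2. SDK1 also lies on 7p22 and had 318 to 437 counts in the 786O libraries and at most 2 in WT8. The opposite pattern, at least 50 counts in WT8 and at most 3 in 786O, held for 6 genes on the same chromosomes.

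The genes whose levels followed ZDHHC4 most closely were not its neighbours. Over the 12 libraries, and among 12778 genes with enough counts in 786O, ZNF365 (r = 0.9998), MAN1A1 (0.9993), KCNC4 (0.9993), LOC102724279 (0.9992) and EVC2 (0.9991) had the highest Pearson correlations of log2 CPM with ZDHHC4. Of the 9 neighbours, RAC1 came first with r = 0.983, in place 387, and DAGLB last with -0.971. These correlations describe 12 libraries that fall into 2 lines, and any gene that separates the lines scores high.

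Paralogs and partners of the 10 genes were read from lists chosen with earlier results of these data known, beside the shares over all genes given above. Of 20 tested DHHC genes other than ZDHHC4, 7 were called higher, 6 lower and 7 not in WT8 shBMAL1 against 786O shBMAL1. ZDHHC7, the most abundant per kb of exon, had a difference of 0.34 (edgeR adjusted p = 1.82e-09), ZDHHC16 of 0.30 (edgeR adjusted p = 3.29e-06), ZDHHC20 of 0.25 (edgeR adjusted p = 9.02e-06) and ZDHHC5 of 0.03 (edgeR adjusted p = 0.468). With shBMAL1, 6 DHHC genes rose and 5 fell in 786O, and 10 rose and 9 fell in WT8. Per kb of exon ZDHHC4 held place 10 of 21 DHHC genes in 786O and place 21 of 21 in WT8. Of 8 depalmitoylases, which remove the lipid again, 4 were higher and 2 lower in WT8 shBMAL1, PPT1 by 0.23 (edgeR adjusted p = 4.36e-05) and LYPLA2 by -0.53 (edgeR adjusted p = 2.92e-07) among them.

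**Figure D5:**
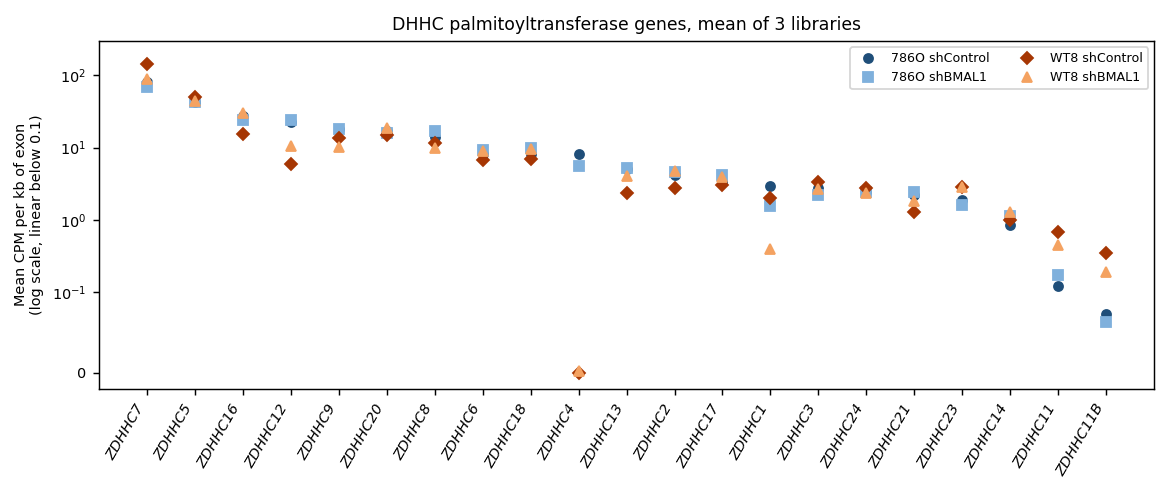
Mean level of 21 DHHC palmitoyltransferase genes (horizontal axis, ordered by 786O shControl) in CPM per kb of exon on an axis that is logarithmic above 0.1 and linear below it, with a symbol for each group. ZDHHC4 held place 10 in 786O and place 21 in WT8, where it was at or next to 0.

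Partners of KDELR2 in the secretory pathway went both ways between the lines. Of 12 genes for KDEL retrieval and the COPI coat, 6 were higher and 4 lower in WT8 shBMAL1 than in 786O shBMAL1. KDELR1, a paralog, was at -0.05 (edgeR adjusted p = 0.323), and COPG1, a coat subunit, was higher by 0.18 (edgeR adjusted p = 0.000192). ARF1, the GTPase that recruits the coat, was lower by 0.41 (edgeR adjusted p = 2.60e-09), and KDELR3, the remaining paralog, named after its values were seen, was lower by 0.47 (edgeR adjusted p = 7.84e-09). With shBMAL1, 5 rose and 3 fell in 786O, and 4 rose and 2 fell in WT8. Among 4 other genes that make or break down 2-arachidonoylglycerol, 1 was higher and 3 were lower in WT8 shBMAL1, where DAGLB was higher. MGLL, the main hydrolase, was lower by 2.83 on the log2 scale (edgeR adjusted p = 7.98e-32) and DAGLA, the paralog of DAGLB, was lower by 1.21 (edgeR adjusted p = 2.04e-13).

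Around RAC1, 3 of 15 genes for related GTPases and the WAVE complex were higher and 7 lower in WT8 shBMAL1. RHOA was at -0.08 (edgeR adjusted p = 0.0920, called) and ARHGDIA, which holds these GTPases in the cytosol, was higher by 0.12 (edgeR adjusted p = 0.0113). With shBMAL1, ARHGDIA rose by 0.60 in 786O (edgeR adjusted p = 6.00e-14) and by 0.62 in WT8 (edgeR adjusted p = 4.14e-15). Of the 15, 6 rose and 5 fell in 786O, and 7 rose and 5 fell in WT8. Of 4 genes for the other cytohesins and ARF6, 1 was higher and 2 were lower in WT8 shBMAL1, 1 fell and 3 were not called with shBMAL1 in 786O, and 1 rose and 3 fell in WT8, where CYTH3 rose. CYTH2 was the one that fell in 786O (-0.16, edgeR adjusted p = 0.0419).

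Of 14 other Integrator genes, 9 were higher and 3 lower in WT8 shBMAL1, where C7orf26 was lower. With shBMAL1 in WT8, 8 of the 14 rose and 4 fell. INTS13, listed as ASUN, rose by 0.62 (edgeR adjusted p = 1.53e-11) and INTS5 fell by 0.51 (edgeR adjusted p = 1.77e-09), against the fall of C7orf26 by 0.83. INTS1, which also lies on 7p22, was lower by 0.23 in WT8 shBMAL1 (edgeR adjusted p = 7.30e-05). In 786O, 3 of the 14 rose and 6 fell.

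The partners of AIMP2 and PMS2 gave one-sided counts with shBMAL1 in WT8. Of 8 tested genes of the multi-tRNA synthetase complex, 4 were higher and 3 lower in WT8 shBMAL1 than in 786O shBMAL1. Their median log2 difference between the lines was -0.34 with shControl and 0.04 with shBMAL1. Of the same 8, 7 rose with shBMAL1 in WT8, as AIMP2 did, and 1 was not called, and 2 rose and 3 fell in 786O. KARS, the lysyl-tRNA synthetase that binds AIMP2, rose by 0.42 in WT8 (edgeR adjusted p = 1.60e-10) and EPRS was at 0.08 (edgeR adjusted p = 0.129). Of 8 other mismatch repair genes, 1 was higher and 5 were lower in WT8 shBMAL1 than in 786O shBMAL1, where PMS2 was lower. With shControl, 7 of them were called lower in WT8 than in 786O and none was called higher. Of all 16838 genes tested, 13378 were called in that comparison, and 49.5% of those calls were higher. The median log2 difference of the 8 genes between the lines was -1.23 with shControl and -0.22 with shBMAL1, beside 0.00 over all genes. Of these 8, 7 rose with shBMAL1 in WT8 and 1 was not called, against the fall of PMS2. EXO1, the exonuclease, rose from 4.00 to 39.2 CPM, PCNA, the sliding clamp, from 36.9 to 133 and MSH6 from 76.8 to 172. In 786O, 3 of the 8 rose and 5 were not called.

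Of 8 genes for eIF2α, its other kinases and the ATF4 branch, 4 were higher and 3 lower in WT8 shBMAL1, where EIF2AK1 was lower. ATF4, the transcription factor that eIF2α phosphorylation switches on, was higher by 0.53 (edgeR adjusted p = 2.24e-13), and EIF2AK4, the kinase that senses uncharged tRNA, was lower by 0.13 (edgeR adjusted p = 0.0123). ATF4 fell with shBMAL1 by 0.49 in 786O (edgeR adjusted p = 8.70e-12) and by 0.30 in WT8 (edgeR adjusted p = 1.72e-07). Of the 8, 2 rose and 1 fell in 786O, and 5 rose and 2 fell in WT8.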

How the data were processed

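RNA was measured in 12 libraries of 786O and WT8 cells. Per the labels, the libraries were of stranded mRNA. Per the methods of the study, the authors aligned read pairs to GRCh37 with SeqMan NGen and exported totals per gene from ArrayStar, whereas the submitters' processing notes name STAR, DESeq2 and hg38. The deposited values were treated as estimated counts, since 5.67% of the values other than the stand-in of 0.028 for 0 were not whole. The design had taken them for plain counts. Each stand-in became 0, the 98 lines of 45 repeated names were summed, and values were rounded. Names were matched to GENCODE 44 on GRCh37 (22506 by the same name, 1141 by an older one, 14374 unmatched). Promoter windows are from RefSeq on GRCh38.p14.

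The filterByExpr function of edgeR 4.0.16 (R 4.3.3) kept 16838 of 26925 genes with a count. Libraries were scaled by TMM (factors 0.948 to 1.04), and a model with 4 group means used all 12 libraries (robust quasi-likelihood F test, common biological coefficient of variation 5.70%). Benjamini-Hochberg adjustment ran over all 16838 genes, and a gene was called at an adjusted p under 0.1, after the study's false discovery rate. The standard error (SE) was taken as log2 change over root F. The procedure was tested on simulated data. Correlations with ZDHHC4 used log2 of CPM plus 0.5. Where no library of a group exceeded 3 counts, a fold is a bound against 3 counts per library. Intervals and floors hold for counting error alone, because reads were not tied to molecules by identifiers. Tables were made with Python 3.11.15 and pandas 2.3.3.

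The 10 genes, the lists and the tests were chosen with earlier results of these data known. Named were the 10 genes, the tested genes between the outermost of them, up to 4 genes with the highest level per length of each of 10 lists, the genes most like ZDHHC4 (5 by correlation and the 10 of highest 786O level with its pattern), and BMAL1 and VHL. Genes of chromosome Y and a few other genes are not reported here and count only in totals. The alternatives were DESeq2 1.42.0, no filter on low counts, upper quartile scaling, TMM factors without chromosome 7 genes, the replicate number as a block, fits on the groups compared alone, a threshold of 0.05, a fold minimum of 1.5 (glmTreat), windows of 5 Mb and leaving out each library.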

Additional observations from a re-analysis of the deposited data

Results flagged for a closer look

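For 6 of the 10 genes the effect of shBMAL1 differed between WT8 and 786O by the test of the difference itself (interaction, edgeR adjusted p under 0.1), among 56.0% of all genes tested that did so. AIMP2 had an interaction of 0.44 on the log2 scale. The value was 0.28 for CYTH3 and 0.17 for RAC1. DAGLB had -0.38. It was -0.77 for C7orf26 and -0.58 for ZNF12. The shControl libraries, on which the genes were chosen, enter this difference.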

How the results depend on the processing

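The counts of the 10 genes called in each comparison stayed within 1.5 times of 8, 6, 7 and 6 under DESeq2 (8, 5, 7 and 6), the replicate block (8, 6, 7 and 6), no filter, other scalings, a threshold of 0.05 and leaving out each library. With a fold minimum of 1.5 (glmTreat of edgeR) they were 2 between the lines with shBMAL1 and 0 with shBMAL1 in 786O. They were 1 with shBMAL1 in WT8 and 1 for the interaction. The shares of all genes tested at this minimum are not given here, so these counts cannot be set against them. Between the lines with shBMAL1, DAGLB differed by 1.89-fold. Of the neighbours called lower there, PMS2 differed most, by 1.53-fold. The count of 0 was also 0 at an unadjusted p under 0.05. The replicate numbers did not pair the libraries, since the deviations of same-numbered libraries correlated between -0.046 and 0.048, and the block changed no call.

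The median of chromosome 7 genes stayed below 0 under all alternatives run. With shControl it was -0.45 without the filter, -0.47 with upper quartile scaling, -0.60 with TMM factors without chromosome 7 genes, -0.56 on the 6 libraries compared alone, -0.56 in DESeq2, -0.58 with the replicate block, and -0.58 to -0.55 when leaving out a library. With shBMAL1 it was -0.54, -0.55 and -0.62 in the first 3 of these and -0.61 to -0.58 when leaving out a library. Upper quartile scaling moved the median of all genes by 0.11 in WT8 shControl against 786O shControl, and the genes of the set moved with it. The same scaling put the median of all genes at -0.12 for shBMAL1 in WT8. No value of a called gene changed direction. Single calls that changed (EIF2AK1, RAC1, ZNF12 and the KDELR2 interaction) are given with their values above. The floor of 3 counts limits what can be said of ZDHHC4 in WT8.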
